A study of Homo sapiens with 6 samples.

Results

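The expression of 10 transcription factors that set keratinocyte identity was examined in HaCaT cells, an immortalized human keratinocyte line, with and without STUB1. STUB1, also named CHIP, is a ubiquitin ligase that works with heat shock chaperones. The 10 genes (TP63, SNAI2, KLF4, KLF5, GRHL1, GRHL2, GRHL3, OVOL1, OVOL2 and ZNF750) were picked as factors that hold the basal state or start differentiation. All 10 were found among the 20014 genes of the deposited table. The knockout group held 3 libraries from HaCaT cells that received a STUB1 guide in a lentiviral CRISPR vector. The control group held 3 libraries, labelled WT, from HaCaT cells that received a control guide in the same vector, so both groups went through the same viral delivery. Neither group had a further treatment. Per the labels, sorted cells were grown as colonies and screened for STUB1 protein. Whether the 3 libraries per group are different clones, different cultures or repeats of one is not stated, so the p-values below measure the spread between these libraries only, which may be technical.

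In stratified epithelia p63, the product of TP63, maintains basal keratinocytes and opens the chromatin of epidermal genes. As cells leave the basal layer, ZNF750, KLF4, GRHL3 and OVOL1 take part in turning on the genes of the barrier, while SNAI2 (Slug), a zinc finger repressor of the Snail family, keeps progenitors from differentiating. GRHL2 and OVOL2 maintain the epithelial state by sustaining junction genes and repressing ZEB1, and KLF5 acts in proliferating epithelial cells.

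SNAI2 rose and OVOL1 fell in the knockout, while TP63, at nearly the same mean level in both groups, and the other 5 tested factors did not pass the test. GRHL2 was above and GRHL1 below the control range in every knockout library, without passing. GRHL3 and ZNF750 were nearly silent in both groups, under the mean of 1 FPKM that a gene needed to be tested. FPKM (fragments mapped to a gene, scaled to its transcript length and to the library's mapped fragments) is thus a value per length, so levels of different genes can be set side by side. Fold changes are on the log2(FPKM + 1) scale, fitted with limma over 11262 genes, and p-values are adjusted over all of them by the Benjamini-Hochberg method at a threshold of 0.05. By this rule 2 of the 8 tested factors (25.0%) changed, against 22.9% of all tested genes. In each direction 1 of 8 changed, against 9.58% of all tested genes that were higher and 13.3% that were lower. The share of changed factors was thus near that of genes in general.

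Libraries were of similar size, an estimated 45600000 to 52400000 reads from the steps between low values. Pearson's r between log2 profiles over the genes lay between 0.996 and 0.9986 for pairs of knockout libraries, and between 0.987 and 0.9979 for pairs of control libraries. Control library 3 stood apart: its log2 deviation from the 6-library mean had a slope of -0.1037 per doubling of transcript length, against -0.0094 to 0.0349 in the other 5 libraries. The same deviation had a slope per 10 percentage points of GC content of 0.0118, 0.1351 and 0.0383 in knockout libraries 1 to 3, against -0.1004, -0.0369 and -0.0478 in control libraries 1 to 3. This GC trend thus separated the groups, with knockout library 2 highest, and its part in the results was not tested beyond the GC and length correction given below. STUB1 mRNA was at 21.6, 24.7 and 23.2 FPKM in knockout libraries 1 to 3, against 37.8, 41.9 and 52.7 FPKM in control libraries 1 to 3. This mRNA was lower in every knockout library. Of 10 keratinocyte markers 8 were tested, among them KRT5, DSG3, DSC3 and ITGA6. KRT14 and KRT17, which have close copies in the genome, were at no more than 0.536 FPKM in any library. Summed levels of 10 fibroblast markers were 0.447 to 0.568 FPKM in the knockout and 0.461 to 0.563 FPKM in the control, with DCN at 0 in all 6 libraries and PDGFRA at no more than 0.005 FPKM. Melanocyte markers (8 genes) summed to 6.49 to 7.66 FPKM in the knockout and 6.79 to 7.42 FPKM in the control, mostly PMEL and MITF, with TYR at 0. Leukocyte markers (10 genes) summed to 23.0 to 25.7 FPKM in the knockout and 21.6 to 22.9 FPKM in the control, nearly all of it CD68, with CD3D and MS4A1 at 0. Of 8 markers of the HEK-293FT packaging cells, summing to 6.27 to 7.32 FPKM in the knockout and 6.6 to 7.51 FPKM in the control, NEFL, NEFM, LIN28B and PAX2 were at 0. In bulk RNA, fewer cells that express a gene and less of its RNA per cell cannot be told apart.

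**Figure D1:**
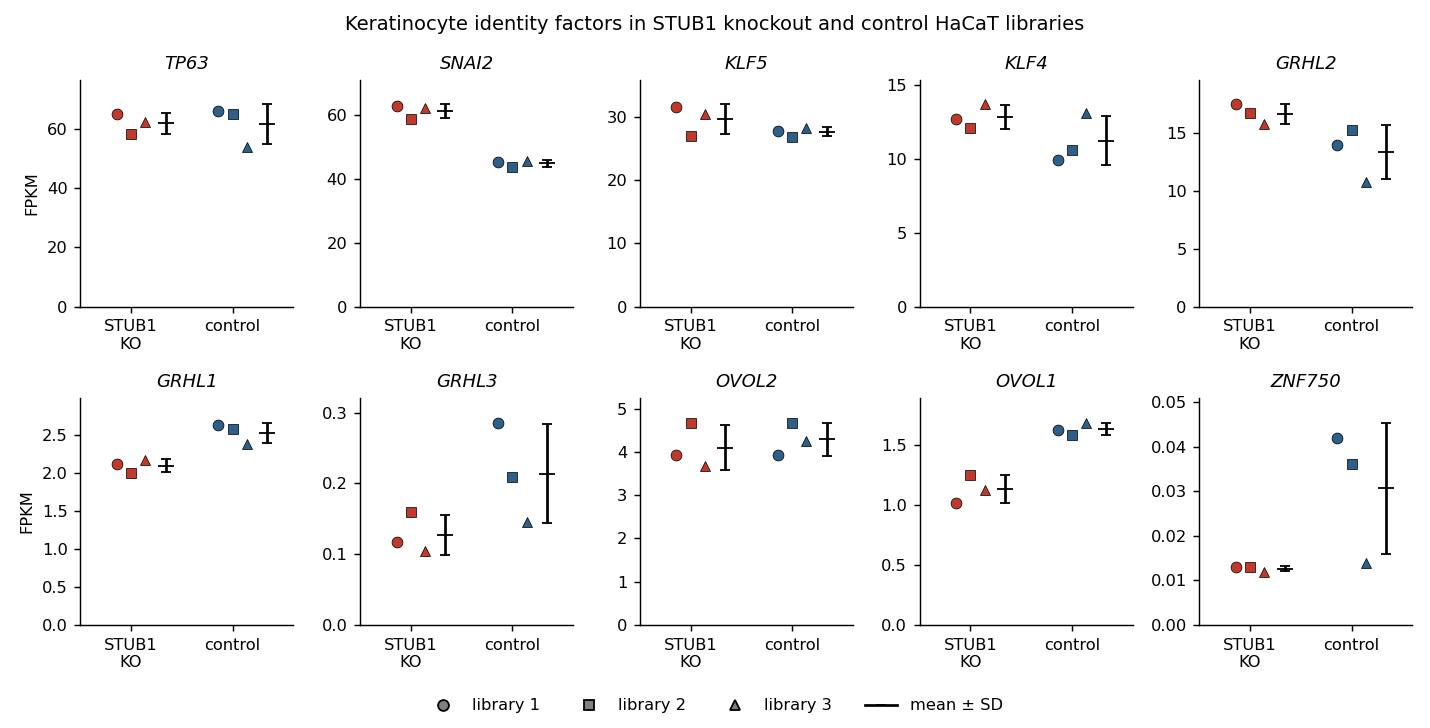
FPKM of each factor in 3 STUB1 knockout libraries (red, left) and 3 control libraries (blue, right), with symbols for the library number and bars for the mean ± SD; each vertical axis starts at 0 and has its own scale. The groups are apart for SNAI2 and OVOL1, and for TP63 both means lie near 62 FPKM.

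TP63 (chromosome 3, 189631416 to 189897279, plus strand) had the highest mean of the 10 in both groups. In the knockout its range overlapped that of SNAI2. All gene coordinates are GRCh38, GENCODE 29. TP63 measured 65.3, 58.3 and 62.5 FPKM in knockout libraries 1 to 3, against 66.0, 65.3 and 53.9 FPKM in control libraries 1 to 3. The groups overlapped throughout, and control library 3 held the lowest value. The knockout mean was 62.1 ± 3.53 FPKM and the control mean 61.7 ± 6.76 FPKM (SD, n = 3 each). Its log2 fold change was 0.01 (SE 0.0936, adjusted p = 0.938), with a 95% interval of -0.20 to 0.22. Its direction was not settled, with a log2 fold change of -0.08 once control library 3 was left out, -0.03 without knockout library 1 and -0.03 on the TPM scale, where 20.3% of tested genes were called. Only a gene-level value was deposited, so the long TA and the short ΔN forms of p63 cannot be told apart here.

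SNAI2 (chromosome 8, 48917604 to 48921740, minus strand) stood next to TP63 in level. It measured 62.6, 58.6 and 62.2 FPKM in knockout libraries 1 to 3, against 45.2, 43.6 and 45.6 FPKM in control libraries 1 to 3. Every knockout library was above every control library. The means were 61.1 ± 2.18 FPKM in the knockout and 44.8 ± 1.08 FPKM in the control (SD, n = 3 each), a ratio of 1.36. The log2 fold change was 0.44 (SE 0.0676, limma adjusted p = 0.00246; 95% interval 0.29 to 0.59), at rank 456 of 11262 by p. By the exact permutation test (two-sided) p was 0.1, which 3 libraries against 3 cannot go below. Its call held under all 15 alternative settings, with log2 fold changes of 0.40 to 0.63 and adjusted p of 4.05e-08 to 0.023. The 45 other tested genes within 10 Mb of SNAI2 had a median log2 fold change of 0.08, with 4 higher and 2 lower. With TP63 nearly level, the ratio of SNAI2 to TP63 FPKM was 0.958, 1.01 and 0.994 in knockout libraries 1 to 3, against 0.685, 0.667 and 0.846 in control libraries 1 to 3.

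KLF5 (chromosome 13, 73054976 to 73077542) and KLF4 (chromosome 9, 107484852 to 107490482), Krüppel-like zinc finger factors, followed at lower levels. KLF5 measured 31.6, 27.0 and 30.5 FPKM in knockout libraries 1 to 3, against 27.9, 26.9 and 28.3 FPKM in control libraries 1 to 3. These ranges overlapped, and the log2 fold change was 0.09 (SE 0.0783, limma adjusted p = 0.401; 95% interval -0.08 to 0.27). It was 0.16 without knockout library 2, 0.05 without knockout library 1 and on the TPM scale, and 0.17 after a correction for GC content and transcript length (adjusted p = 0.0549). KLF4 measured 12.7, 12.1 and 13.7 FPKM in the knockout, against 9.94, 10.6 and 13.1 FPKM in the control. Control library 3 lay within the knockout range and the other 2 control libraries below it. The log2 fold change of KLF4 was 0.19 (SE 0.103, limma adjusted p = 0.207; 95% interval -0.04 to 0.42). Without control library 3 it was 0.30 and passed (adjusted p = 0.00314), in a fit that called 40.1% of tested genes. With library weights estimated from the data it was 0.37 (adjusted p = 1.05e-05), in a fit that called 57.2%. Library weights also brought KLF5 past the threshold, at 0.13 (adjusted p = 0.0208).

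The grainyhead-like factors bind the same DNA motif; here GRHL2 was higher and GRHL1 lower in every knockout library, without passing the test. GRHL2 (chromosome 8, 101492432 to 101669726), the main one in these cells, measured 17.5, 16.7 and 15.8 FPKM in knockout libraries 1 to 3, against 14.0, 15.3 and 10.8 FPKM in control libraries 1 to 3. All 3 knockout values were above the control values. The means were 16.7 ± 0.818 FPKM in the knockout and 13.4 ± 2.3 FPKM in the control (SD, n = 3 each), with a log2 fold change of 0.31 (SE 0.115) that did not pass (limma adjusted p = 0.0805). With the replicate number as a block the same difference passed (adjusted p = 0.032; 27.1% of tested genes were called). It also passed after a correction for GC content and transcript length, at 0.27 (adjusted p = 0.042; 28.1% called, and 0.0258 with the block; 25.1% called). Control library 3 was the lowest, and GRHL2 has 6060 exonic bases. The part of that library's length trend in the result was not tested beyond this correction and leaving that library out. Without that library the log2 fold change was 0.17 (adjusted p = 0.049), and without control library 2 it was 0.40 (adjusted p = 0.0282).

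GRHL1 (chromosome 2, 9951693 to 10002277), known for sustaining desmosomal cadherins, measured 2.12, 2.0 and 2.17 FPKM in knockout libraries 1 to 3, against 2.63, 2.58 and 2.38 FPKM in control libraries 1 to 3. Again the groups did not overlap, here with the knockout below. The log2 fold change was -0.19 (SE 0.0673) and did not pass (limma adjusted p = 0.0713), with 0.0197 for the adjusted p without control library 3 and 0.0921 with the replicate block. GRHL3 (chromosome 1, 24319322 to 24364482), which drives barrier formation, was at 0.117, 0.159 and 0.105 FPKM in the knockout, against 0.286, 0.209 and 0.146 FPKM in the control. Control library 3 was below knockout library 2, so the groups overlapped. In the limma fit without a filter its log2 fold change was -0.11 (SE 0.0479, adjusted p = 0.265), and that fit called 9.48% of 20014 genes.

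Promoter windows of 300 bases (250 before to 50 after the RefSeq start, GRCh38.p14) were on hand for 5 of the 10 factors, with 7 starts in all. They are the starts of TP63, GRHL1, GRHL3, KLF4 and KLF5, and they were searched on both strands for motifs that the families of these factors bind. The TP63 window (189631139 to 189631438) lies at the outer end of the gene, and starts further inside TP63 were not searched. The KLF box CCACCC occurred in both GRHL3 windows and in no window of the other factors, and it was present in 34.3% of 35116 windows of all genes. The E-box CAGGTG, bound by Snail and ZEB proteins, occurred 2 times in the upstream GRHL3 window and in no other window of a factor, and in 20.6% of all windows. The GRHL site AACCGGTT (0.134% of all windows) and the OVOL site CCGTTA (3.07%) occurred in none of the 7. The GC box GGGCGG, bound by SP and KLF proteins, occurred in the windows of KLF4, GRHL1, the upstream GRHL3 start and the downstream KLF5 start, and in 45% of all windows. Neighbouring KLF and GC boxes can share end bases. A match is a description of the sequence, not evidence of binding. The stretches before the GRHL3 and GRHL1 starts are shown because these 2 related genes differ in the boxes they carry. Both had a lower mean in the knockout, but GRHL1 did not pass and GRHL3 overlapped between the groups. A link between the boxes and the levels was not tested. GRHL3 spans chr1:24319107-24319321 with its 3 KLF boxes in capitals and its GC box left in lower case, and GRHL1 spans chr2:9951443-9951692 with 3 GC boxes in capitals, read on the opposite strand as CCGCCC.
GRHL3: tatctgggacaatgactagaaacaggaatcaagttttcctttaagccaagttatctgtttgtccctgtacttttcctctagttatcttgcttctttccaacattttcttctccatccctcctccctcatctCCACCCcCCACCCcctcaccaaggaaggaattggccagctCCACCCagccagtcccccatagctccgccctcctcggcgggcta
GRHL1: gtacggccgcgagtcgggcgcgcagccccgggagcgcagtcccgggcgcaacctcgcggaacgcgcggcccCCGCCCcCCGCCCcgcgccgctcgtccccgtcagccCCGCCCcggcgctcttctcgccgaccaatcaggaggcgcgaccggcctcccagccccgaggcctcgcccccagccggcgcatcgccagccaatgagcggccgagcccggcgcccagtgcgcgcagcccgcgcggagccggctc

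OVOL1 (chromosome 11, 65787022 to 65797219, plus strand), a zinc finger repressor that rises as keratinocytes leave the cell cycle, was the member that fell. It measured 1.02, 1.25 and 1.13 FPKM in knockout libraries 1 to 3, against 1.63, 1.59 and 1.69 FPKM in control libraries 1 to 3. The 3 knockout values all lay under the control values. The means were 1.13 ± 0.117 FPKM in the knockout and 1.64 ± 0.0506 FPKM in the control (SD, n = 3 each), 69.2% of control. The log2 fold change was -0.31 (SE 0.0671, limma adjusted p = 0.0124; 95% interval -0.46 to -0.16), and -0.50 with a pseudocount of 0.1. The call was lost without knockout library 1 (adjusted p = 0.0567) or knockout library 3 (0.0575). OVOL1 shares 1044 exonic bases with an unnamed antisense gene (ENSG00000255404), not analysed here, and no strand setting is given, so reads of that stretch cannot be told apart. The 256 other tested genes within 10 Mb had a median log2 fold change of 0.12, with 49 higher and 5 lower.

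Its relative OVOL2 (chromosome 20, 17956979 to 18059188) was more abundant, at 3.93, 4.68 and 3.68 FPKM in knockout libraries 1 to 3, against 3.93, 4.68 and 4.26 FPKM in control libraries 1 to 3. In both groups library 2 was the highest, and the groups overlapped. OVOL2 shares 59 exonic bases on the same strand with SNX5, a sorting nexin at 61.0 ± 3.17 FPKM in the knockout and 76.6 ± 6.13 FPKM in the control (SD, n = 3 each; limma adjusted p = 0.0226), and the part of its reads in the OVOL2 values was not tested. The log2 fold change was -0.06 (SE 0.0935, limma adjusted p = 0.698; 95% interval -0.27 to 0.16), and 0.00 without knockout library 3 or control library 2.

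ZNF750 (chromosome 17, 82829435 to 82840578), a direct p63 target that acts with KLF4 in late differentiation, was at the edge of detection. It had 0.013, 0.013 and 0.012 FPKM in knockout libraries 1 to 3, against 0.042, 0.036 and 0.014 FPKM in control libraries 1 to 3. From the estimated library sizes these values correspond to about 2, 2 and 2 reads in the knockout, against about 7, 7 and 2 reads in the control. A difference was not detectable at this depth (limma without a filter, log2 fold change -0.03, adjusted p = 0.243). ZNF750 lies on the opposite strand within the span of TBCD, a tubulin cofactor at 3.27 ± 0.18 FPKM in the knockout and 4.01 ± 0.525 FPKM in the control (SD, n = 3 each). Of 139 other tested genes within 10 Mb, 96 were lower and 0 higher, with a median log2 fold change of -0.38.

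**Figure D2:**
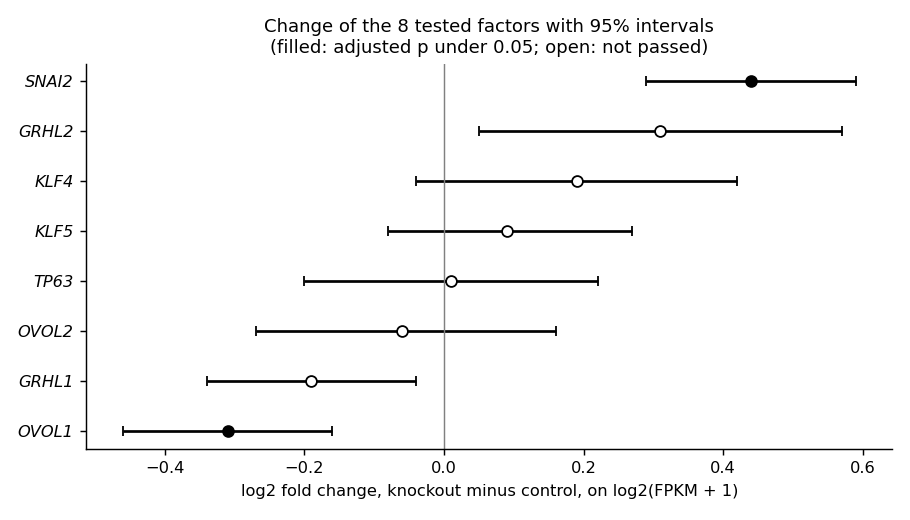
Log2 fold change (knockout minus control, on log2(FPKM + 1)) of the 8 tested factors with 95% intervals from limma; filled points passed an adjusted p of 0.05. SNAI2 at 0.44 and OVOL1 at -0.31 are the filled points, while the intervals of GRHL2 and GRHL1 lie on 1 side of 0 but did not pass after adjustment.

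The order of levels was TP63, SNAI2, KLF5, GRHL2, KLF4, OVOL2, GRHL1, OVOL1, GRHL3 and ZNF750 in both groups. In the knockout only TP63 and SNAI2, of all neighbours in that order, had library ranges that overlapped. In the control only GRHL2 and KLF4 did, while TP63 was above SNAI2 in every library. TP63 and SNAI2 together made up 64.6% to 65.0% of the summed FPKM of the 10 factors in knockout libraries, against 62.1% to 64.8% in control libraries. That sum was 197.0, 180.9 and 191.9 FPKM in knockout libraries 1 to 3, against 171.5, 170.8 and 160.3 FPKM in control libraries 1 to 3. The groups did not overlap for 4 of the 8 tested factors (SNAI2, GRHL2, GRHL1 and OVOL1), against 45.6% of all tested genes (20.4% with the knockout higher and 25.3% with it lower), so a gap between the groups was about as common as among genes in general.

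Differences between 2 factors within a library do not depend on how the library was scaled, apart from the pseudocount. In all, 10 such pairs were compared. A trend with GC content or length does not cancel between genes that differ in these, such as SNAI2 (41.4% GC) and OVOL1 (58.3%). The pairs were not compared after the GC and length correction. In that fit the log2 fold changes were 0.63 for SNAI2, -0.39 for OVOL1, -0.14 for GRHL1 and 0.27 for GRHL2. GRHL3 and ZNF750 lay far under the pseudocount of 1, so their changes were damped in these pairs and the differences still depended on scaling. SNAI2 minus OVOL1 was 4.98, 4.73 and 4.89 log2 units in knockout libraries 1 to 3, against 4.13, 4.11 and 4.12 in control libraries 1 to 3. This was the widest shift of the 10 pairs, with the knockout 0.75 higher and no overlap. SNAI2 also gained on OVOL2 by 0.50 and on KLF4 by 0.25, a shift of 0.15 for KLF4 without control library 3. GRHL1 minus GRHL2 was -2.51 ± 0.0892 in the knockout and -2.02 ± 0.19 in the control (SD, n = 3 each), a shift of -0.50 with no overlap. OVOL1 minus OVOL2 shifted by -0.25 and GRHL3 minus GRHL2 by -0.41, both again without overlap, and by -0.43 and -0.78 with a pseudocount of 0.1. All 6 of these pairs had the lowest attainable p of 0.1 by the exact permutation test (two-sided), and 0.167 after adjustment over the 10 pairs. The share of gene pairs in general without overlap was not computed. The other 4 pairs (KLF4 and KLF5, GRHL1 and GRHL3, TP63 and KLF4, TP63 and ZNF750) overlapped, with shifts of 0.09, -0.08, -0.18 and 0.04. In terms of FPKM, GRHL2 was 8.23, 8.38 and 7.31 times as high as GRHL1 in knockout libraries 1 to 3, against 5.34, 5.92 and 4.56 times in control libraries 1 to 3.

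**Figure D3:**
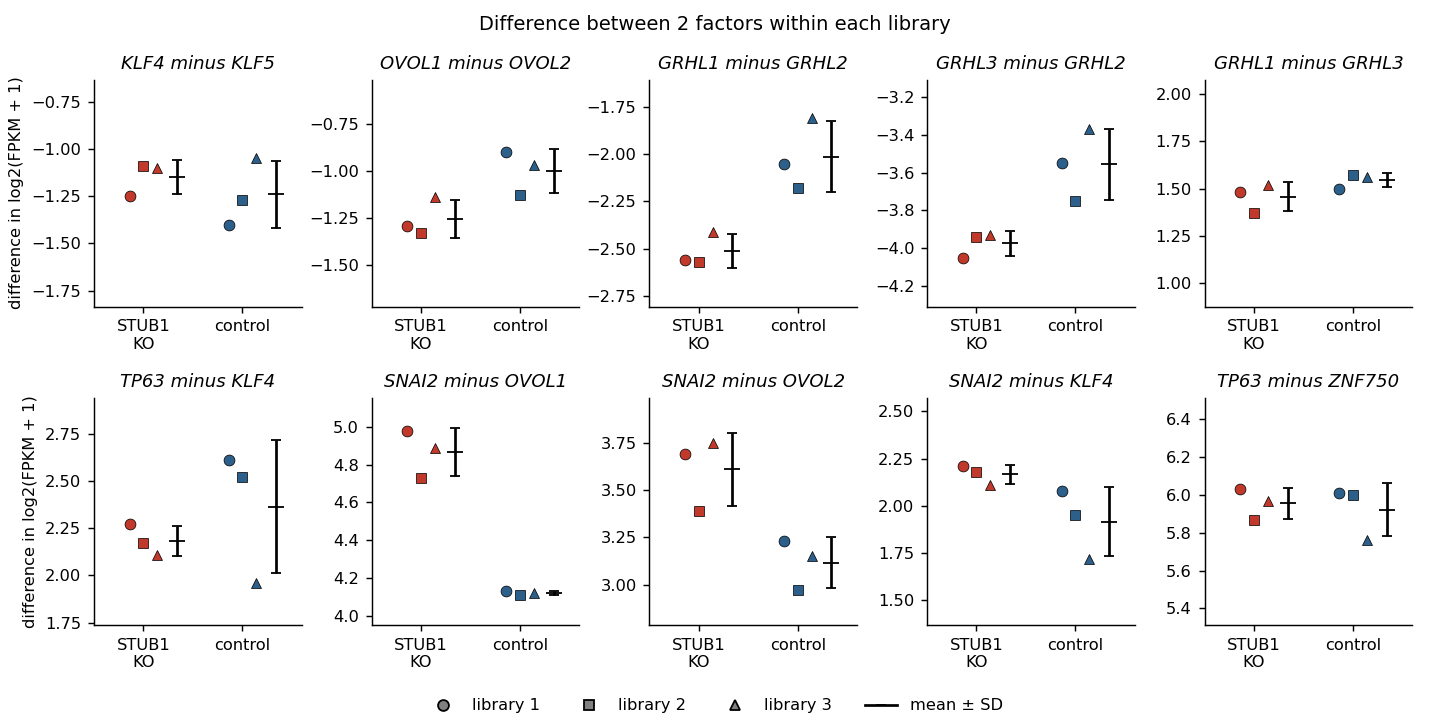
Difference in log2(FPKM + 1) between 2 factors in each library, knockout (red, left) and control (blue, right), with the mean ± SD; vertical axes differ between panels and do not start at 0. SNAI2 minus OVOL1 shows the widest separation, with all 3 knockout libraries above 4.7 and the controls at 4.11 to 4.13.

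Genes with the profile nearest to a changed factor were found by the root mean square distance between log2 profiles over the 6 libraries, each centred on its own mean. For SNAI2 these were ASNS, asparagine synthetase, at a distance of 0.00405 log2 units, and PSAT1, an enzyme of serine synthesis, at 0.0259. ASNS stood at 62.7 ± 2.11 FPKM in the knockout and 45.9 ± 1.18 FPKM in the control (SD, n = 3 each). For OVOL1 they were TMEM40, a transmembrane protein, at 0.0192 and PTGES, a prostaglandin E synthase, at 0.0281. TMEM40 stood at 3.84 ± 0.318 FPKM in the knockout and 4.99 ± 0.0997 FPKM in the control (SD, n = 3 each). In FPKM the knockout mean was 69.2% of control for OVOL1, 76.8% for TMEM40 and 79.9% for PTGES. The pseudocount of 1 damped OVOL1, the lowest of these, the most, so their nearness depends on it. Genes nearest to a factor picked for its group difference share that difference by construction.

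Among 18 relatives of the factors 11 were tested. TP73, KLF13 and KLF7 rose, 8 did not pass and none fell, with a median of 0.15, against -0.01 for all tested genes. Among all tested genes 9.58% were higher and 13.3% lower. The gene lists here and below were chosen with earlier results of these data known. TP73, a close relative of TP63, had 1.77, 2.13 and 1.82 FPKM in knockout libraries 1 to 3, against 0.614, 0.614 and 0.47 FPKM in control libraries 1 to 3. All knockout values exceeded the control values, by a ratio of means of 3.37. Its log2 fold change was 0.89 (SE 0.0748, limma adjusted p = 0.000156), and 1.59 with a pseudocount of 0.1. TP73 reached the filter through its knockout values alone, so its place in this count was not independent of its level there. It amounted to 2.71% to 3.66% of the TP63 level in knockout libraries, against 0.872% to 0.94% in control libraries. The 106 other tested genes within 10 Mb of TP73 had a median of 0.11, with 20 higher and 3 lower. KLF13 had 3.75 ± 0.169 FPKM in the knockout and 2.17 ± 0.552 FPKM in the control, and KLF7 had 14.0 ± 0.349 FPKM in the knockout and 10.3 ± 1.9 FPKM in the control (SD, n = 3 each). The call of KLF7 was lost without any 1 of knockout libraries 1 to 3 (adjusted p 0.0995, 0.114 and 0.0922), and that of KLF13 without knockout library 2 (0.0618). Without a filter neither passed (0.14 and 0.0695). The 64 other tested genes near KLF13 on chromosome 15 had a median of 0.18, with 26 higher and 1 lower. SNAI1 and SNAI3, relatives of SNAI2, and OVOL3 stayed under 1 FPKM, with means of 0.0553, 0.13 and 0.251 FPKM in the knockout and 0.102, 0.316 and 0.265 FPKM in the control.

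Of 22 genes described as p63 targets 19 were tested: 4 rose, 2 fell and 13 did not pass, with a median of -0.03. KRT5, the basal keratin, JAG2, a Notch ligand, FGFR2, a growth factor receptor, and FERMT1 (kindlin-1), an integrin activator, rose. JAG2 had 24.5 ± 1.32 FPKM in the knockout and 18.8 ± 0.872 FPKM in the control (SD, n = 3 each; log2 fold change 0.37, limma adjusted p = 0.00835). It was at 0.16 after the GC and length correction (adjusted p = 0.0604 with the block). FGFR2 had 2.31 ± 0.0844 FPKM in the knockout and 1.7 ± 0.135 FPKM in the control (SD, n = 3 each), a call lost without knockout library 1 (adjusted p = 0.0608) or 3 (0.0795). FERMT1 had a log2 fold change of 0.47, and 0.29 without control library 3, in which it was lowest; its call was lost when any knockout library was left out (adjusted p 0.0887 to 0.142). CLDN1, a tight junction claudin, and PERP, a desmosome protein, fell, the call of PERP being lost without knockout library 2 (0.0651). Of 15 basal genes, partly the same, 5 of 14 tested rose (KRT5, COL7A1, COL17A1, LAMB3 and LAMA3). None fell and 9 did not pass, with a median of 0.16, and 8 of the 14 were above 0. KRT15, a basal keratin, was below the control range in every knockout library without passing (log2 fold change -0.24, limma adjusted p = 0.0651). The shares over all tested genes were 9.58% higher and 13.3% lower. COL7A1, the anchoring fibril collagen, had 37.4 ± 0.921 FPKM in the knockout and 22.1 ± 3.05 FPKM in the control (SD, n = 3 each), with a log2 fold change of 0.74, and of 0.47 after the GC and length correction. LAMB3 and LAMA3, laminin chains, lost their calls when any knockout library or control library 1 was left out, with adjusted p up to 0.0889 and 0.148, and LAMA3 was at 0.29 without control library 3. In the fit without a filter PERP (adjusted p = 0.0615), FERMT1 (0.172), COL17A1 (0.0564), LAMB3 (0.064) and LAMA3 (0.18) did not pass, and on the TPM scale FERMT1 (0.0501) and LAMA3 (0.0546) did not.

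Of the 33 late differentiation genes measured, 22 had a mean under 1 FPKM, among them FLG, LORICRIN, KRT1 and CASP14, and 11 were tested. Of these 5 fell (KLK5, SPRR2A, SPRR1A, KLK7 and KRT10), none rose and 6 did not pass, with a median of -0.16. Of the 11, 2 were above 0. One of them, ABCA12, was above the control range in every knockout library without passing (log2 fold change 0.20, limma adjusted p = 0.0654). Over all tested genes 13.3% were lower and 9.58% higher, and this list was chosen with earlier results of these data known. KLK7, a corneocyte-shedding protease, had 3.55 ± 0.202 FPKM in the knockout and 4.44 ± 0.28 FPKM in the control, and KRT10, a suprabasal keratin, had 9.77 ± 0.725 FPKM in the knockout and 14.7 ± 3.95 FPKM in the control (SD, n = 3 each). Both calls were lost when any knockout library was left out (adjusted p 0.0705 to 0.164 and 0.107 to 0.115), that of KLK7 also without control library 1 (0.0633) or 2 (0.0618). KRT10 was highest in control library 3, without which its log2 fold change was -0.32 against -0.51. In the fit without a filter SPRR1A (adjusted p = 0.0851), KLK7 (0.0666) and KRT10 (0.181) did not pass. SPRR2A, at 0.747, 0.75 and 0.643 FPKM in knockout libraries 1 to 3, against 1.88, 2.41 and 1.72 FPKM in control libraries 1 to 3, reached the filter through its control values alone, so its place in this count was not independent of its level there. SPRR2A has close relatives in its gene cluster, so its reads may be shared. Of 14 genes described as grainyhead-like targets 11 were tested, 1 fell and 10 did not pass, with a median of -0.05. The one that fell was EPCAM, an epithelial adhesion molecule, at 105.0 ± 8.07 FPKM in the knockout and 167.0 ± 25.7 FPKM in the control (SD, n = 3 each; log2 fold change -0.66, limma adjusted p = 0.0043). CDH1 (E-cadherin) had a log2 fold change of 0.11 (limma adjusted p = 0.452), and TGM1 and DSG1, named targets of GRHL3 and GRHL1, were under the filter.

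On the axis of epithelial and mesenchymal states, where OVOL factors repress ZEB1 and SNAI2 represses epithelial genes, 7 of 13 genes were tested. MYC, which OVOL1 is known to repress in mouse epidermis, fell, and the other 6 did not pass, with a median of 0.11. The shares over all tested genes were 9.58% higher and 13.3% lower. MYC had 74.2 ± 1.75 FPKM in the knockout and 87.5 ± 2.07 FPKM in the control (SD, n = 3 each; log2 fold change -0.24, limma adjusted p = 0.034). Its call was lost without any library except control library 3 (adjusted p 0.0733 to 0.165). ZEB1 was at 0.304 ± 0.0229 FPKM in the knockout and 0.262 ± 0.0845 FPKM in the control, and ZEB2 was at 0.0127 ± 0.00379 FPKM in the knockout and 0.0187 ± 0.0133 FPKM in the control (SD, n = 3 each), both under the filter.

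Of 47 other transcription and chromatin factors of keratinocytes 32 were tested. HR, HES1, TFAP2C and HES2 rose, MYC fell and 27 did not pass, with a median of 0.07. The shares over all tested genes were 9.58% higher and 13.3% lower. HR (hairless), a corepressor of hair follicle and epidermis, had 6.5, 7.11 and 6.45 FPKM in knockout libraries 1 to 3, against 4.31, 4.06 and 3.31 FPKM in control libraries 1 to 3. Its log2 fold change was 0.66 (SE 0.0924, limma adjusted p = 0.0017), and 0.39 after the GC and length correction. HES1, a Notch-induced repressor, had 10.6, 10.5 and 11.2 FPKM in the knockout, against 7.16, 7.44 and 8.32 FPKM in the control. Both genes were above the control range in every knockout library, and HES1 had a log2 fold change of 0.45 (SE 0.0782, limma adjusted p = 0.00443). TFAP2C, an AP-2 factor that acts early in keratinocyte fate, and HES2 were at 0.22 each, and both calls were lost with the replicate block (adjusted p 0.055 and 0.0585). They were also lost without any library except control library 3, with adjusted p up to 0.18 and 0.174, and HES2 was at 0.09 after the GC and length correction (adjusted p = 0.271). On the TPM scale TFAP2C (0.167) and HES2 (0.149) did not pass either.

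**Figure D4:**
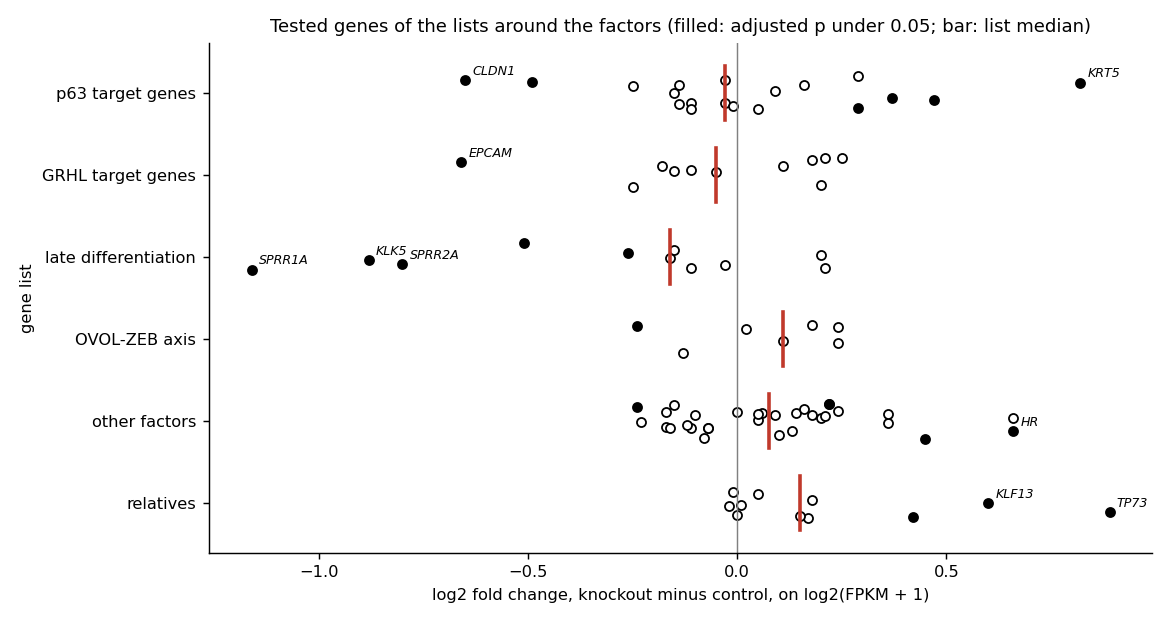
Log2 fold change (knockout minus control) of the tested genes of 6 lists around the factors, 1 point a gene with vertical scatter for legibility, filled where adjusted p was under 0.05; red bars are list medians. Filled points of the late differentiation list lie left of 0 and those of the relatives right of 0, with TP73 at 0.89, while most genes are open points near 0.

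Genes described as acting on p63 (14, all tested) numbered 2 higher, PPP1R13L (iASPP) and DGCR8, a microRNA processing factor, and 1 lower, MDM2, with 11 that did not pass and a median of 0.05. Those described as acting on KLF4, KLF5 or SNAI2 (13, all tested) numbered 1 higher, EGR1, and 2 lower, MDM2 and FBXO32. The other 10 did not pass, and the median was 0.01. For both lists the shares over all tested genes were 9.58% higher and 13.3% lower. EGR1, an immediate early factor, had 128.0 ± 7.48 FPKM in the knockout and 78.6 ± 2.07 FPKM in the control (SD, n = 3 each; log2 fold change 0.69, limma adjusted p = 0.000507). MDM2, a ubiquitin ligase, had 9.64 ± 0.943 FPKM in the knockout and 12.1 ± 0.428 FPKM in the control (SD, n = 3 each). Its call was lost without knockout library 2 (adjusted p = 0.0962), knockout library 3 (0.0919) or control library 1 (0.0939). PPP1R13L, DGCR8 and FBXO32 lost theirs without 3, 4 and 5 of the 6 libraries in turn, with adjusted p up to 0.136, 0.169 and 0.163, and after the GC and length correction PPP1R13L was at 0.16 against 0.35 and DGCR8 at 0.22 against 0.34. Without a filter MDM2 (adjusted p = 0.0742), PPP1R13L (0.148), DGCR8 (0.163) and FBXO32 (0.0805) did not pass.

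**Figure D5:**
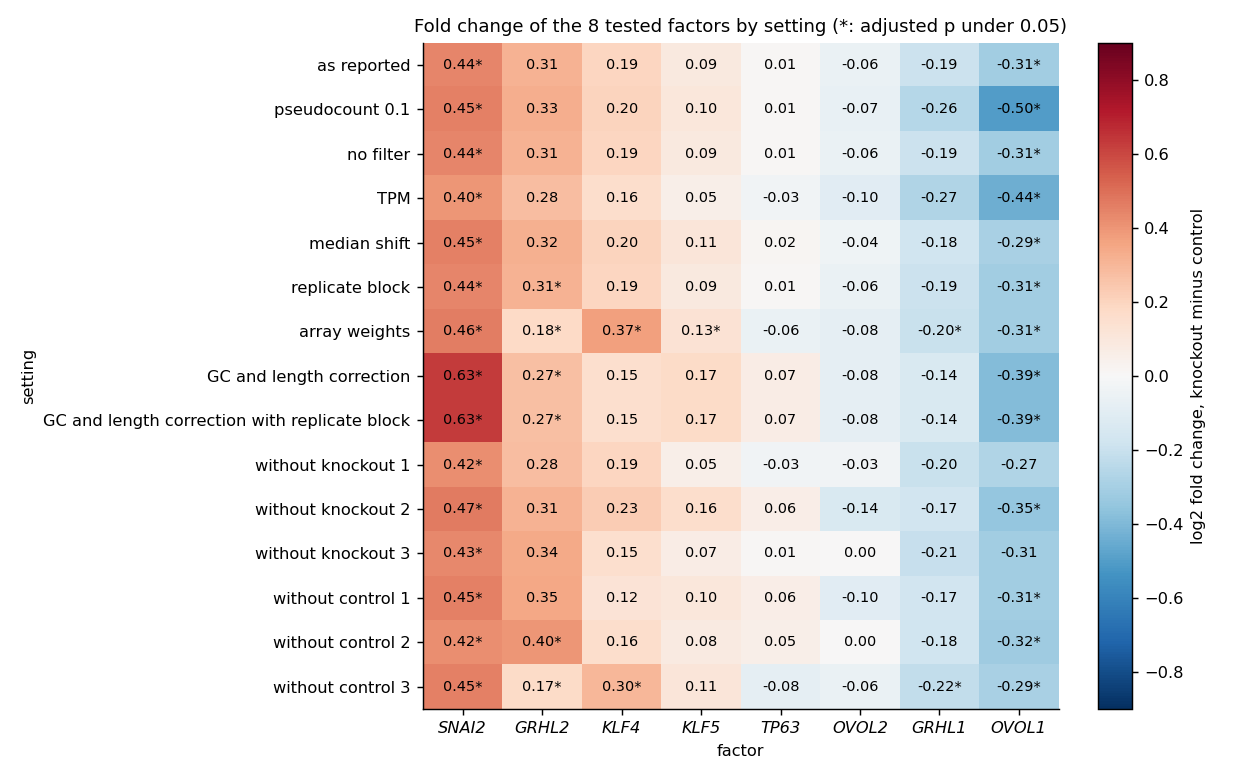
Log2 fold change of the 8 tested factors (columns) under the reported fit and the alternative settings other than the filter of 0.1 FPKM (rows); color gives the value and an asterisk an adjusted p under 0.05. SNAI2 has an asterisk in every row, OVOL1 in all but those without knockout library 1 or 3, and TP63 and OVOL2 in none.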

How the data were processed

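Poly(A)-selected RNA of 6 HaCaT libraries was sequenced, per the labels' protocols. The authors deposited 1 FPKM value for each of 20014 Ensembl genes and each library. The build GRCh38.p13 and, with no roles given, Cufflinks, edgeR 3.6.3, featureCounts 1.6.3, HISAT2 2.0.5 and Trimmomatic 0.36 appear in the submitters' processing notes. For annotation, strand setting and filters the sources used here give nothing. FPKM is no count, so no count test was run. From steps between low values, 61.4% to 67.7% of 259 to 287 low values per library were whole reads to within 0.15, so library sizes are estimates, reads were not recovered and no counting intervals are given.

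Symbols came from an Ensembl table for 19991 genes and from GENCODE 29 for 23; GENCODE 29 also gave coordinates, GC content and exonic length. Genes with a mean of at least 1 FPKM over the 6 libraries (11262) were tested as log2(FPKM + 1) with limma 3.58.1 (R 4.3.3). Genotype was the single term, with an intensity trend and Benjamini-Hochberg adjustment. The fit was also run on simulated data with independent errors. That simulation held no GC, length or replicate trend and no outlying library, so it could not show how these affect the calls. FPKM differences of low genes are understated on this scale. Tables and plots used Python 3.11.15, pandas 2.3.3, numpy 2.4.6 and matplotlib 3.10.9.

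The factors and the gene lists were chosen with earlier results of these data known. Named genes were the 10 factors, STUB1, close relatives, up to 4 list genes a direction past the threshold, and the 2 nearest profiles of each changed factor. KRT15 and ABCA12 were added after their values were seen. Replicate numbers are shared between groups: same-numbered libraries deviated from their group means together (r over genes of 0.375, 0.15 and 0.188, all above 0.1). The reported fit left this pairing out, and a fit with the replicate number as a block was an alternative. No label states a shared batch. The GC and length correction removed a spline trend from each library (11177 genes). Other alternatives were a pseudocount of 0.1, no filter or one of 0.1 FPKM, TPM, equal library medians, library weights, and leaving out each library. Some genes covered by the naming rule are not reported here.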

Additional observations from a re-analysis of the deposited data

How the results depend on the processing

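The SNAI2 call held under all 15 alternatives. The number of changed genes moved to 667 higher on the TPM scale and to 3139 higher and 3298 lower with library weights, and to between 391 and 2103 higher and 639 and 2418 lower when 1 library was left out. Higher genes made up fewer of the calls on the TPM scale, with 667 higher and 1622 lower, against 1079 and 1500. The number of factors that rose was 2 with the replicate block, with the correction for GC and length, and with both, 4 with library weights, and 1 to 3 when a library was left out. The number that fell was 2 with library weights and 0 to 2 when a library was left out. Genes of the 6 lists in the plot numbered 11 higher and 9 lower. These became 30 and 25 with library weights, 18 and 16 after correction for GC and length, 19 and 15 when the block was added to it, and 6 to 23 and 5 to 20 when a library was left out.

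TP63 had -0.03 on the TPM scale, -0.06 with library weights and -0.08 to 0.06 when a library was left out. OVOL1 ranged from -0.35 to -0.27, OVOL2 from -0.14 to 0.00, GRHL1 from -0.22 to -0.17, GRHL2 from 0.17 to 0.40 and KLF4 from 0.12 to 0.30 in those fits. With library weights GRHL1 (-0.20), GRHL2 (0.18), KLF4 (0.37) and KLF5 (0.13) passed. GRHL2 passed with the replicate block (0.31), with the correction for GC and length (0.27), and with both (0.27). The block changed no other call among the factors. The difference between GRHL1 and GRHL3 turned from -0.08 to 0.19 with a pseudocount of 0.1, and that between TP63 and ZNF750 ranged from -0.04 to 0.08 when a library was left out. The cause of these shifts was not tested. Without depth, counting error could not be set beside the spread for GRHL3 and ZNF750.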

Other observations

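Several further genes around these factors were picked after their values were seen. IRX4, an Iroquois homeobox factor, had 0.073, 0.066 and 0.131 FPKM in knockout libraries 1 to 3, against 0.789, 0.785 and 1.09 FPKM in control libraries 1 to 3. The knockout mean was 10.1% of the control mean, although both groups were too low for the filter (limma without a filter, log2 fold change -0.79, adjusted p = 0.0104). The 28 tested genes within 10 Mb of IRX4 on chromosome 5 had a median log2 fold change of 0.29, with 14 higher and 0 lower. VIM (vimentin), an intermediate filament of mesenchymal cells, had 0.536, 0.544 and 0.51 FPKM in the knockout, against 0.209, 0.304 and 0.234 FPKM in the control (limma without a filter, log2 fold change 0.29, adjusted p = 0.0132). It remained under 1 FPKM in every library.

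CEBPD, a CCAAT-binding factor of differentiating keratinocytes, had 47.9, 47.1 and 54.2 FPKM in knockout libraries 1 to 3, against 26.0 and 23.0 FPKM in control libraries 1 and 2. Control library 3 lay within the knockout range, and the control mean was 33.0 ± 14.8 FPKM (SD, n = 3). The log2 fold change was 0.66 (limma adjusted p = 0.0729), and 0.99 without control library 3 (adjusted p = 6.09e-08). With the replicate block the difference passed (0.66, adjusted p = 0.011), as it did with the block and the GC and length correction (0.53, adjusted p = 0.0107) and on the TPM scale (0.62, adjusted p = 0.0485). CEBPD passed in 5 of the 15 alternatives. It did not pass with the GC and length correction alone (limma adjusted p = 0.0656), without a filter (0.285) or with equal library medians (0.0884). CEBPB, its relative, had 28.5, 32.7 and 35.9 FPKM in the knockout, against 19.2, 20.5 and 38.7 FPKM in the control (limma adjusted p = 0.262). Control library 3 was above all 3 knockout libraries there, and the other 2 control libraries were below them.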
